A study of Arabidopsis thaliana with 4 samples.

Results

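The loci described here are stretches of nuclear DNA at which methylation differed between ndx1-4 and Col-0 in the CG and the CHG context, while no CHH region was listed at the same place. They were found by chaining the authors' differentially methylated regions of any context on the 5 nuclear chromosomes into loci wherever regions overlapped by at least 1 bp. A locus was kept when it held at least 1 CG and at least 1 CHG region and 0 CHH regions, whatever the direction of change. This gave 131 loci with 269 regions, 133 in CG and 136 in CHG, out of 6787 nuclear regions and 5943 loci (2.20% of loci, 95% Wilson interval 1.86% to 2.61%). The data come from bisulfite sequencing of seedlings of Arabidopsis thaliana at an age of 14 days. Col-0 is the wild-type accession and ndx1-4 is a T-DNA insertion allele of NODULIN HOMEOBOX (NDX), and each genotype had 2 libraries. The labels give no treatment, and they do not say whether the 2 libraries of a genotype came from separate plants. A single mutant allele was used, so differences that go with NDX and differences that go with this plant line cannot be told apart.

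Plant DNA carries methylation at CG, CHG and CHH sites, H being any base but G. CG methylation is copied after replication by MET1, and CHG methylation is maintained mainly by CMT3 in a loop with SUVH4 and related enzymes that methylate lysine 9 of histone H3. CHH methylation has no symmetrical partner on the other strand and is laid down anew by CMT2 and by DRM2 in the RNA-directed pathway. Many active genes carry CG methylation alone in their bodies, whereas silenced repeats usually carry all contexts.

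Each region comes with a single methylation level per genotype, a fraction from 0 to 1 that the authors computed from its libraries. Neither the level in each library nor the number of reads at a cytosine was at hand, so the depth of a level is unknown. The labels give 15 to 17 M raw reads for a library, sequenced as pairs of 150 bp. Levels are therefore printed without an error, and no test between the genotypes was possible from these values. Wilson intervals below cover only the counting of loci. Regions below the authors' thresholds are not in the list, so a CHH change too small to be listed may still be present at these loci.

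The stretches shared by the CG and the CHG region are printed below for 5 loci, 3 that gained and 2 that lost methylation, to show how the cytosines of both contexts lie among each other. They were read from the plus strand of the RefSeq copy of TAIR10.1, and capitals mark CG sites and the CHG sites CAG, CTG, CCG and CGG, which together cover both strands. The coordinates are chr4:2294082-2294272 for the gain at AT4G04580, chr3:15896138-15896392 for the gain on chromosome 3 and chr1:20433941-20434113 for the gain at AGL85. They are chr3:16537979-16538176 for the loss at GATA14 and chr5:17976913-17977008 for the loss near AT5G44578.
gain at AT4G04580: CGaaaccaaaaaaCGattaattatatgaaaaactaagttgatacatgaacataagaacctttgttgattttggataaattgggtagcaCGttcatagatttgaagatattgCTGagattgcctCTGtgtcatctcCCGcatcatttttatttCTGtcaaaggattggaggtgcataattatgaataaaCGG
gain on chromosome 3: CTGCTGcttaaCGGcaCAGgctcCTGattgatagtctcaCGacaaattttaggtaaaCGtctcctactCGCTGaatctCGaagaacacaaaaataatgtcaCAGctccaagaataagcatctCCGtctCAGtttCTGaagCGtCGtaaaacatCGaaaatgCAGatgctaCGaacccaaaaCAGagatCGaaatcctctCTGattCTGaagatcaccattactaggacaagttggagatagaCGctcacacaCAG
gain at AGL85: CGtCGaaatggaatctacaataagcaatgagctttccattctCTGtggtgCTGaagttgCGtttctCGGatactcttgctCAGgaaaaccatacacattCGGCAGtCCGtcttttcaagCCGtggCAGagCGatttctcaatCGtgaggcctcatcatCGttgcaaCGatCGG
loss at GATA14: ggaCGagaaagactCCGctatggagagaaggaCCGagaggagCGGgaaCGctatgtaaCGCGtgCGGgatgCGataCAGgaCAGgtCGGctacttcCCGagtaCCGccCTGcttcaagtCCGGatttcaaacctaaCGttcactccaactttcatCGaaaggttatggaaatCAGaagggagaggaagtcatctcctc
loss near AT5G44578: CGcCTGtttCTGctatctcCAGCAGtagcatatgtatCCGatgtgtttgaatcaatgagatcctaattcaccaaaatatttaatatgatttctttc
The stretches differ in how dense their sites are. The 191 bp at AT4G04580 hold 5 CG sites, 3 CTG sites and 2 CCG or CGG sites. The 198 bp at GATA14 hold 15 CG sites, and 9 of its CHG sites are CCG or CGG, in which a CG site makes up part of the CHG site. The 96 bp near AT5G44578 hold 2 CG sites against 2 CAG sites, 2 CTG sites and 1 CCG site. All 5 hold lower case cytosines outside these sites, which are CHH cytosines unless a site is broken by the end of the stretch.

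Methylation fell in ndx1-4 at 81 of the 131 loci (61.8%, interval 53.3% to 69.7%) and rose at 50 (38.2%, interval 30.3% to 46.7%). Across all 5943 nuclear loci, 45.3% rose in every region, a share that lies inside the interval of the CG and CHG loci. By region, 50 of the 133 CG regions (37.6%) were higher in ndx1-4, against 56.3% of all nuclear CG regions. Of the 136 CHG regions, 55 (40.4%) were higher, against 35.4% of all nuclear CHG regions. The share of higher regions was below its background in CG and slightly above it in CHG, and neither difference of shares was tested. The share of rising loci was 62.1% (54.7% to 68.9%) where regions of all 3 contexts overlapped and 71.1% (64.9% to 76.5%) at CG and CHH loci, with 10.3% (7.41% to 14.1%) for CHG regions alone.

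CG and CHG always moved the same way. All 131 loci had a single direction, and so did 138 of 138 overlapping CG and CHG pairs. This is close to the background, since 99.9% of all 5943 loci had a single direction, most of them because they hold only 1 region. Other loci of several contexts also mostly had a single direction. It was found at 171 of 174 loci of all 3 contexts, 224 of 228 CG and CHH loci and 94 of 94 CHG and CHH loci. Among CG and CHG regions of different loci that lay under 200 bp apart without overlapping, 23 of 24 pairs shared a direction.

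**Figure D1:**
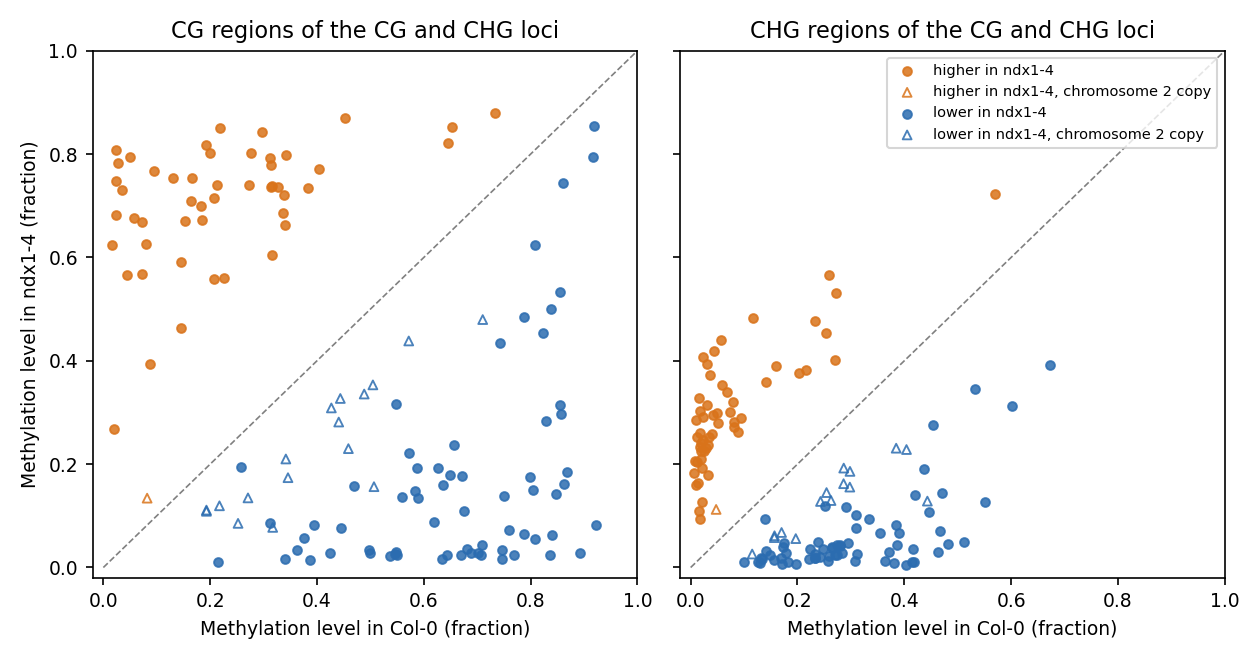
Methylation level in Col-0 (x axis, fraction) against ndx1-4 (y axis, fraction) for the 133 CG regions (left) and 136 CHG regions (right) of the CG and CHG loci, 1 point per region. Orange regions were higher and blue regions lower in ndx1-4, triangles lie in the mitochondrial copy on chromosome 2, and the dashed line marks equal levels. CG points reach up to 0.923 in Col-0, while most CHG points of rising loci start under 0.1.

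The 2 contexts moved over different ranges. CG regions that rose went from a median level of 0.197 in Col-0 (range 0.0167 to 0.733) to 0.736 in ndx1-4 (range 0.134 to 0.879). CHG regions that rose went from a median of 0.0341 (range 0.00579 to 0.571) to 0.286 (range 0.0946 to 0.724). Most of these CHG regions began with little or no CHG methylation. In Col-0, 44 of 55 (80%) were under 0.1, near the 72.6% of all rising nuclear CHG regions. Of the rising CG regions, 16 of 50 (32%) were under 0.1, against 43.0% of all rising nuclear CG regions. Gains thus often began in DNA that already carried some CG methylation. At loci of all 3 contexts the shares under 0.1 were 72.5% in CHG and 51.9% in CG. CG regions that fell went from a median of 0.635 (range 0.193 to 0.923) to 0.135 (range 0.0102 to 0.855). CHG regions that fell went from a median of 0.279 (range 0.101 to 0.673) to 0.0431 (range 0.00552 to 0.392). After the loss, 59 of 81 CHG regions (72.8%) and 36 of 83 CG regions (43.4%) were under 0.1 in ndx1-4. Among all falling nuclear regions the shares were 34.8% in CHG and 55.8% in CG. At loci of all 3 contexts they were 85.9% and 62.7%, higher than here in both contexts.

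Set by locus, the lower genotype fell into 3 kinds of state. Both contexts were under 0.1 at 16 rising and 36 falling loci. CG was at or over 0.1 with CHG under it at 25 rising and 23 falling loci. Both were at or over 0.1 at 9 rising and 22 falling loci. The fourth state, CHG at or over 0.1 with CG under it, was found at 0 of 50 rising and 0 of 81 falling loci. The limit of 0.1 was chosen after the levels had been seen.

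The CG level was above the CHG level at most loci in both genotypes, at 126 of 131 in Col-0 and 120 of 131 in ndx1-4. The change in CG was also the larger of the 2 at 122 of 131 loci. At the median locus the change in CHG was 0.517 times the change in CG, with 0.481 at rising and 0.562 at falling loci and a range from 0.156 to 2.82. Of the 9 loci where CHG changed more than CG, 6 lay in the mitochondrial copy described below. Another was at the 18S ribosomal RNA gene AT2G01010 (chr2:5139-5283), which was chosen here after its values were seen. There CG went from 0.861 to 0.744 and CHG from 0.673 to 0.392. Ribosomal RNA genes are present in many near-identical copies, so these levels cannot be given to a single copy.

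**Figure D2:**
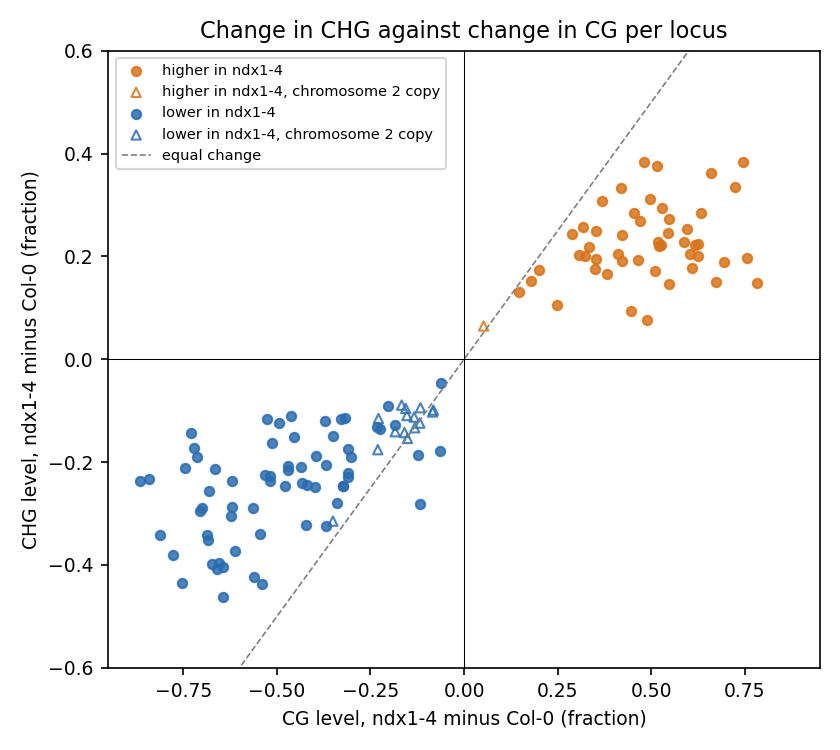
Difference in CHG level (y axis, ndx1-4 minus Col-0, fraction) against the difference in CG level (x axis) for the 131 loci, with a mean weighted by length where a locus holds several regions of a context. All points lie in the lower left or upper right quadrant, and 122 of 131 lie on the CG side of the dashed line of equal change, while triangles mark the chromosome 2 copy.

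Larger changes in CG went with larger changes in CHG among falling loci and less so among rising ones. Across the 81 falling loci Pearson's r was 0.641 and Spearman's rho 0.655, and outside the chromosome 2 copy they were 0.524 and 0.516 over 66 loci. Across the 50 rising loci r was 0.347 and rho 0.258, and 0.265 and 0.211 over the 49 outside the copy. These correlations are across loci of the same libraries, loci are not replicates, and both contexts of a locus share reads and in part cytosines next to each other.

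The regions of a locus mostly lay over each other. Of the 131 loci, 125 held 1 CG and 1 CHG region, 2 held more than 1 CG region and 4 more than 1 CHG region. Where a locus held several regions of a context, its level is given as their mean weighted by length. The CHG region lay within the CG region at 48 loci, the CG region within the CHG region at 13, and 70 overlapped in part. The CG span was longer at 95 of 131 loci. The overlap had a median of 84 bp (range 2 to 436) and covered a median of 87.8% of the CHG region, with 99.3% at rising and 77.5% at falling loci. Loci had a median length of 211 bp (range 85 to 952), against 353.5 bp where all 3 contexts were listed.

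The limits of the rule of 1 bp show how loosely some pairs were joined. The smallest overlap inside was 2 bp, on chromosome 2 between a CG region (3346489 to 3346854) that went from 0.505 to 0.353 and a CHG region (3346853 to 3346922) that went from 0.385 to 0.231. The next overlaps were 3 bp at UMAMIT45 and 7 bp at AT1G47770. Just outside, a CG region on chromosome 4 (2510582 to 2510761) that went from 0.685 to 0.912 lay 12 bp from a CHG region (2510502 to 2510569) that went from 0.0227 to 0.271. The next gaps were 23 and 28 bp. Pairs on both sides of the limit had a single direction.

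Rising loci are described by those whose CG and CHG regions both ranked high by the authors' area statistic. The leading one lay at AT2G05995, a noncoding RNA gene on chromosome 2 (chr2:2325701-2326505), where CG went from 0.452 to 0.870 and CHG from 0.0892 to 0.422. The locus that ranked next was between genes on chromosome 3 (chr3:15896133-15896403), 876 bp from AT3G44170, with CG from 0.219 to 0.850 and CHG from 0.0167 to 0.302. It is the gain on chromosome 3 in the printed sequences, with 12 CG sites, 6 CAG sites, 7 CTG sites and 2 CCG or CGG sites. At AT3G22050, a gene for a cysteine-rich repeat secretory protein (chr3:7764745-7765483), CG went from 0.0582 to 0.676 and CHG from 0.0709 to 0.293. At AT2G01422 (chr2:184295-184750), a noncoding RNA gene within 1 kb upstream of PIN4, which encodes an auxin efflux carrier, CG went from 0.312 to 0.792 and CHG from 0.0574 to 0.440. These 4 gains differed in where they began, with CG levels in Col-0 from 0.0582 to 0.452.

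Coding sequence was touched by several of the leading gains. AT4G04580 encodes a homeodomain-like protein on the minus strand, and its locus (chr4:2294012-2294332) went from 0.0500 to 0.795 in CG and from 0.0234 to 0.407 in CHG, the largest rise in CHG among the 131 loci. AGL85 (AT1G54760) encodes an AGAMOUS-like protein, a MADS-box relative, in a gene of a single exon, and the locus lay wholly in its coding sequence (chr1:20433919-20434298). CG there went from 0.343 to 0.798 and CHG from 0.0301 to 0.315. GH9B14 (AT4G09740), which encodes a glycosyl hydrolase, went from 0.2004 to 0.803 in CG and from 0.0322 to 0.237 in CHG (chr4:6144420-6144885). All 3 genes had CHG levels under 0.1 in Col-0 and CG levels close to 0.8 in ndx1-4.

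Of the other leading gains, 1 was at the noncoding RNA gene AT1G07777 (chr1:19354373-19354827), with CG from 0.276 to 0.803 and CHG from 0.0158 to 0.239. Another was at the pseudogene AT1G50210 (chr1:18600661-18600882), with CG from 0.130 to 0.755 and CHG from 0.0224 to 0.247. The remaining 3 lay outside annotated genes, at chr3:22031532-22031881, chr2:11948804-11949282 and chr1:16493255-16493446. Their CG levels went from 0.327 to 0.736, from 0.167 to 0.753 and from 0.0231 to 0.683, in that order. Their CHG levels went from 0.0199 to 0.225, from 0.0744 to 0.302 and from 0.0311 to 0.394. Each of these 5 gains thus also began with CHG levels under 0.1 in Col-0.

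Several leading losses left the regions of both contexts under 0.1, as did 36 of all 81 falling loci. The top one was in pericentromeric DNA (chr4:4696304-4697255), with the pseudogene AT4G07874 at a distance of 174 bp. CG went from 0.923 to 0.0816 and CHG from 0.310 to 0.0764, the CG region covering only 179 bp of the locus (4696538 to 4696716). On chromosome 5 (chr5:10807549-10808357), CG went from 0.836 to 0.0241 and CHG from 0.386 to 0.0438. On chromosome 1 (chr1:3932806-3933167), CG went from 0.680 to 0.0361 and CHG from 0.512 to 0.0503, the largest fall in CHG among the 131 loci. All 3 were left with levels under 0.1 in both contexts. A CHH region lay 13 bp from the second of them and 22 bp from the other on chromosome 1, and both CHH regions were higher in ndx1-4, opposite to the loci beside them.

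Genes and their upstream parts were also among the leading losses. Upstream of AT5G44578, which encodes an uncharacterized protein, CG went from 0.702 to 0.0289 and CHG from 0.404 to 0.00552 (chr5:17976881-17977021). In the coding sequence of GATA14 (AT3G45170), a GATA transcription factor gene, CG went from 0.787 to 0.0650 and CHG from 0.182 to 0.0104 (chr3:16537889-16538202). At AT4G00960, a protein kinase gene (chr4:415164-415455), CG went from 0.863 to 0.162 and CHG from 0.355 to 0.0662. Before these losses CHG in the GATA14 coding sequence was lower than at the other 2, although all 3 were highly methylated in CG. Upstream of MYB104 (AT2G26950), which encodes a myb domain protein, CG went from 0.644 to 0.0237 and CHG from 0.312 to 0.0253 (chr2:11502459-11502842).

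The other leading losses included a locus at the downstream end of AT2G07020, a gene for a kinase-like protein (chr2:2907824-2908637). CG there went from 0.824 to 0.454 and CHG from 0.470 to 0.145. Its CG region (2907824 to 2908306) lay outside the gene, and only the CHG region reached into it. Outside genes, chr2:1246602-1246899 went from 0.759 to 0.0717 in CG and from 0.371 to 0.0300 in CHG. The locus chr4:15627637-15628519 lay upstream of AT4G32375, which encodes a pectin lyase-like protein, and went from 0.689 to 0.0284 in CG and from 0.418 to 0.00974 in CHG. Unlike the other leading losses outside the chromosome 2 copy, the locus at the end of AT2G07020 kept CG methylation above 0.2 in ndx1-4. The last 2 of the 12 leading losses, chr2:3335453-3335871 and chr2:3283693-3283898, were in the chromosome 2 copy. CG there went from 0.488 to 0.336 and from 0.710 to 0.480, and CHG from 0.254 to 0.145 and from 0.404 to 0.228.

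Of the 41 loci that overlapped a protein-coding gene, 8 lay at genes with a symbol. AGL85 and GH9B14 rose and GATA14 fell, as given above. POLA2 (AT1G67630), a gene for a DNA polymerase alpha subunit, was reached only at its end by a rising locus (chr1:25343787-25344442), with CG from 0.316 to 0.605 and CHG from 0.232 to 0.476. This rising locus also overlapped the pseudogene AT1G67626. ABCC13 (AT2G07680), an ABC transporter gene, lost CG from 0.709 to 0.0428 and CHG from 0.233 to 0.0193 (chr2:3516769-3517025). TOM2B (AT1G32370), a gene named for tobamovirus multiplication, fell from 0.549 to 0.316 in CG and from 0.252 to 0.119 in CHG at its downstream end (chr1:11678637-11678721). The locus at ABCC13 was left with levels under 0.1 in both contexts, whereas the loci at the ends of POLA2 and TOM2B had levels over 0.1 in both genotypes. UMAMIT45 (AT3G28100), a gene for an EamA-like transporter, fell from 0.394 to 0.0829 in CG and from 0.243 to 0.0209 in CHG (chr3:10460211-10460380). ABCI4 (AT2G07681), named for cytochrome c assembly and in the chromosome 2 copy, went from 0.444 to 0.327 in CG and from 0.287 to 0.192 in CHG (chr2:3292340-3292446).

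Further loci are named here after their values were seen, for the genes beside them. Upstream of ARP6 (AT3G33520), an actin-related protein gene of a chromatin remodelling complex, CG went from 0.497 to 0.0347 and CHG from 0.141 to 0.0313, and the locus ended 76 bp from the gene. Upstream of TSO1 (AT3G22780) and within its neighbour AT3G22770, CG went from 0.857 to 0.297 and CHG from 0.550 to 0.126. Upstream of ATG8F (AT4G16520), a gene for a ubiquitin-like protein of autophagy, CG went from 0.769 to 0.0249 and CHG from 0.248 to 0.0365. At TAS3b (AT5G49615), a trans-acting siRNA gene, CG went from 0.671 to 0.177 and CHG from 0.149 to 0.0249. These 4 loci lost methylation in both contexts. Upstream of UPL5 (AT4G12570), a ubiquitin ligase gene, CG rose from 0.0200 to 0.269 and CHG from 0.0213 to 0.127. Upstream of PDIL5-2 (AT1G35620), a gene for a protein disulfide isomerase-like protein, CG rose from 0.0167 to 0.624 and CHG from 0.00579 to 0.182. Expression of these genes was not measured in these libraries.

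Relative to annotated features, 41 of 131 loci (31.3%, interval 24.0% to 39.7%) overlapped a protein-coding gene, near the 33.0% of all nuclear loci. The share lay between the 61.1% of CG regions alone and the 19.9% of CHG regions alone, and was 21.8% (16.3% to 28.6%) at loci of all 3 contexts. With each locus counted under a single feature, 30 touched coding sequence, 8 an untranslated part of an exon and 3 an intron only, 9 a pseudogene, 11 a noncoding RNA gene and 26 only the 1 kb upstream of a gene. The other 44 were in none of these, and transposable elements were not annotated here. Counted with any other feature, 38 loci (29.0%, interval 21.9% to 37.3%) reached into 1 kb upstream of a gene, against 23.0% of all nuclear loci. The share was 43.7% (36.5% to 51.1%) at loci of all 3 contexts and 44.7% (38.4% to 51.2%) at CG and CHH loci, with 22.3% for CG regions alone and 15.0% for CHG regions alone. Noncoding RNA genes were overlapped by 12 loci (9.16%, interval 5.32% to 15.3%), against 2.83% of all loci and 9.77% of loci of all 3 contexts. The share was 1.06% at CHG and CHH loci and 2.19% at CG and CHH loci. Longer loci can touch more features, and these shares were not adjusted for length. The median length was 211 bp here, 121 bp over all loci and 353.5 bp at loci of all 3 contexts.

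**Figure D3:**
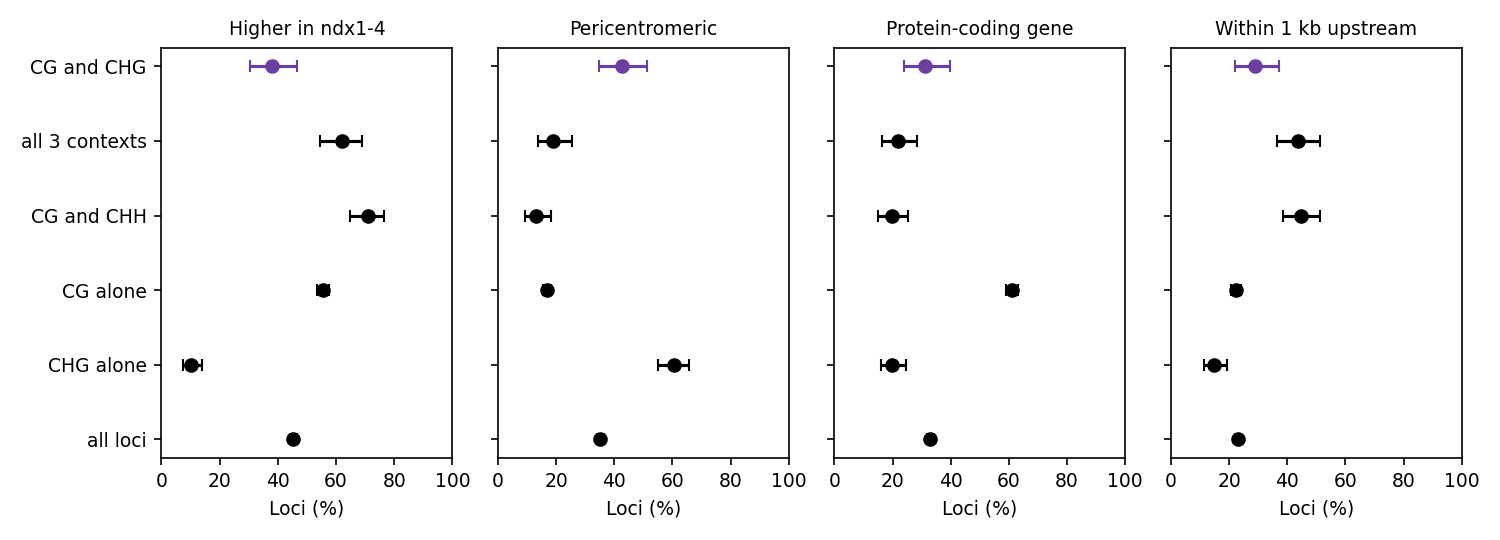
Percentage of loci that were higher in ndx1-4, pericentromeric, overlapping a protein-coding gene, or reaching into 1 kb upstream of a gene, for the CG and CHG loci (purple) and the other kinds of loci (black), with 95% Wilson intervals as bars. The CG and CHG loci stood at 38.2%, 42.7%, 31.3% and 29.0% in these panels.

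The loci were spread over all chromosomes, with 28, 44, 22, 18 and 19 on chromosomes 1 to 5. Pericentromeric DNA, defined by low gene density and covering 17.7% of the nuclear chromosomes, held 56 of 131 loci (42.7%, interval 34.6% to 51.3%). It held 35.2% of all nuclear loci, 19.0% (13.8% to 25.4%) of loci of all 3 contexts and 60.4% (55.0% to 65.6%) of CHG regions alone. Without the chromosome 2 copy the share was 34.8%, close to that of all loci. Of the 50 rising loci 26.0% (15.9% to 39.5%) were pericentromeric, and of the 81 falling loci 53.1% (42.3% to 63.6%). Of the 43 falling pericentromeric loci, 15 lay in the chromosome 2 copy. Without the copy the shares were 24.5% (14.6% to 38.1%) of 49 and 42.4% (31.2% to 54.4%) of 66, with intervals that overlap, and the difference was not tested. On the arms 37 loci rose and 38 fell, whereas 13 rose and 43 fell in pericentromeric DNA. All nuclear loci showed a split of the same kind, with 58.4% rising on the arms and 21.1% in pericentromeric DNA.

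**Figure D4:**
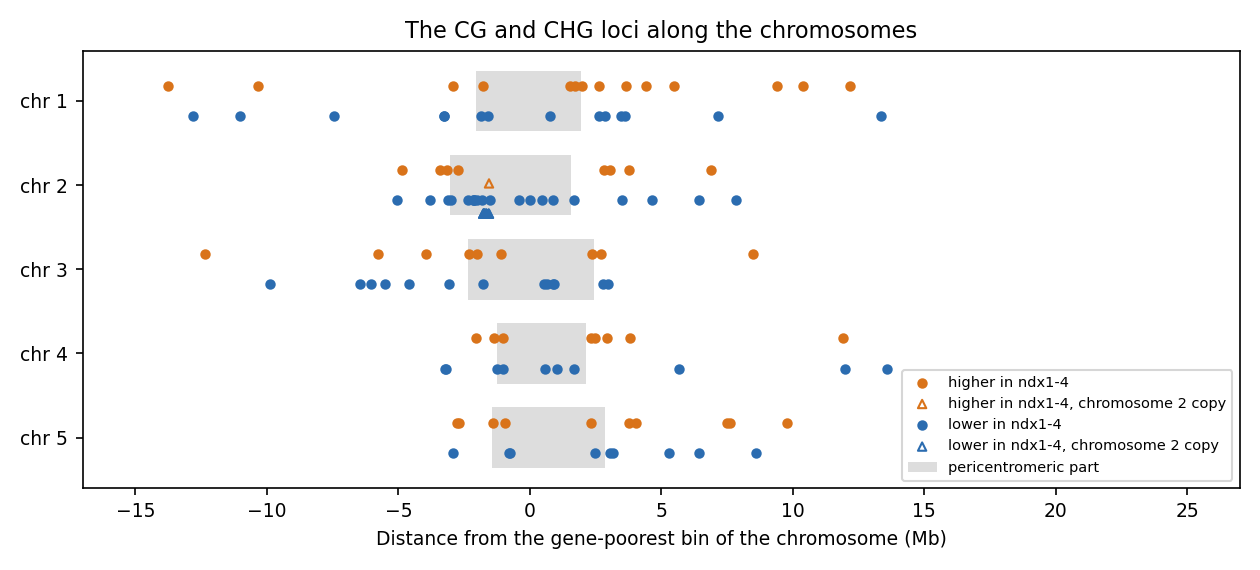
Positions of the 131 loci on the 5 chromosomes as distance (Mb) from the bin with fewest genes, with rising loci in orange above falling loci in blue. Grey boxes mark pericentromeric DNA, which holds 13 rising and 43 falling loci, and triangles mark the 16 loci of the mitochondrial copy on chromosome 2.

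A single stretch of chromosome 2 held many of the losses. It is a copy of mitochondrial DNA that was inserted into the nuclear genome, located here between 3250465 and 3509765 (259.3 kb) by 6 aligned blocks of 98.3% to 99.9% identity. It held 16 of the 131 loci (12.2%, interval 7.66% to 18.9%), 15 falling and 1 rising, against 58 of all 5943 loci (0.976%). Loci of all 3 contexts had 0 of 174 there and CG and CHH loci 0 of 228, which allow shares of up to 2.16% and 1.66% by the Wilson interval. CG regions alone had 27 of 2329 there (1.16%, 0.798% to 1.68%) and CHG regions alone 11 of 321 (3.43%, 1.92% to 6.03%). Falling regions in the copy went from a median of 0.427 to 0.210 in CG and from 0.263 to 0.130 in CHG. Outside it, falling CG regions went from 0.677 to 0.0876 and falling CHG regions from 0.279 to 0.0358. Losses in the copy were therefore smaller in both contexts and left more methylation behind. The mitochondrial genome itself had 236 listed regions, 223 of them lower in ndx1-4. Reads of the copy and of the mitochondrial genome are hard to tell apart at this identity, and the part of mitochondrial reads in these 16 loci was not tested.

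Several loci of the copy lay at genes that carry mitochondrial names, and they are given after their values were seen. The locus chr2:3348872-3349036 overlapped only the end of AT2G07785, a NADH dehydrogenase family gene. It lay within the coding sequence of AT2G07599, a gene for an uncharacterized protein, and went from 0.441 to 0.282 in CG and from 0.298 to 0.156 in CHG. At AT2G07695, a cytochrome c oxidase subunit II-like gene (chr2:3346489-3346922), CG went from 0.505 to 0.353 and CHG from 0.385 to 0.231. The strongest loss in the copy was at chr2:3316560-3316654, outside genes, with CG from 0.507 to 0.156 and CHG from 0.443 to 0.129. The weakest in CG was at AT2G07646 (chr2:3409019-3409129), with CG from 0.193 to 0.111 and CHG from 0.157 to 0.0578. The copy thus held intermediate levels in Col-0, from 0.193 to 0.710 in CG over its falling loci, and retained some CG methylation in ndx1-4. Next to the copy and outside its aligned blocks, AT2G07773, a cytochrome b-like gene (chr2:3241862-3242037), went from 0.559 to 0.137 in CG and from 0.390 to 0.0673 in CHG. Whether the locus at AT2G07773 belongs to the same insertion was not tested.

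The extremes of the change in CG are also named after their values were seen. The largest fall was in an intron of AT4G04750, which encodes a major facilitator superfamily protein, where CG went from 0.892 to 0.0273 and CHG from 0.279 to 0.0414 (chr4:2420528-2420661). Behind it came the top-ranked losses at chr4:4696304-4697255 and chr5:10807549-10808357 given above. The next largest fall was in the coding sequence of AT2G22805, a defensin-like gene (chr2:9712817-9713067), with CG from 0.840 to 0.0628 and CHG from 0.416 to 0.0362. The largest rise was upstream of AT5G38350, a disease resistance gene of the NBS-LRR class (chr5:15328238-15328431), where CG went from 0.0240 to 0.807 and CHG from 0.0102 to 0.159. The locus at AT4G05805, a noncoding RNA gene (chr4:6579845-6580089), was similar, with CG from 0.0268 to 0.783 and CHG from 0.00830 to 0.206. At the loci by these 4 genes, CG crossed most of the scale while CHG moved by a smaller amount. The smallest change in CG was the rise in AT2G07662 in the copy, from 0.0820 to 0.134. Its CHG level went from 0.0477 to 0.112.

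Opposite changes lay close together at a few places. In AT2G07662, a gene of the copy for an uncharacterized protein, a rising locus (chr2:3497570-3497758) and a falling locus (chr2:3498215-3498607) were 456 bp apart. CG went from 0.0820 to 0.134 in the former and from 0.312 to 0.156 in the latter. On chromosome 4, a falling locus (chr4:2613124-2613306) lay 1283 bp from a rising one (chr4:2614590-2614737), with CG from 0.788 to 0.485 and from 0.227 to 0.560. On chromosome 1, a falling locus at AT1G47770, a beta-galactosidase-related gene, lay 3434 bp from a rising one at AT1G47780, an alpha/beta-hydrolase gene. CG went from 0.839 to 0.5 in the former and from 0.314 to 0.779 in the latter.

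By the rule, no CHH region overlapped the loci. The nearest one lay at a median distance of 9640 bp (range 13 to 268320). Such distances were not computed for other loci or for random positions, so near and far cannot be judged. Within 200 bp there was a CHH region at 11 of 131 loci, all of them falling, and 6 of these 11 CHH regions fell as well. Within 2000 bp there was one at 29 loci, 13 of the same direction. The loci held a median of 24.2 CHH cytosines per 100 bp over both strands. Their CHH levels are not among the values listed. Loci of all 3 contexts held 23.7 and CG and CHH loci 22.7. Pooled densities were 24.3 over the CG and CHG loci and 26.2 over the nuclear genome.

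CG cytosines were denser than in the genome, and CHG cytosines slightly so. The loci held a median of 6.04 CG and 5.77 CHG cytosines per 100 bp. Pooled over all their bases the values were 6.58 and 5.97, against 4.67 and 5.11 pooled over the whole nuclear genome. Each locus had to hold a CG and a CHG region with at least 4 cytosines each, so the rule itself favours higher densities than the genome. The medians were 4.51 and 4.20 at loci of all 3 contexts, and 4.67 and 2.09 at CG and CHH loci. CHG cytosines were thus sparse at loci listed in CG and CHH without CHG, and the smallest number of cytosines in any listed region was 4. CG regions alone had 9.32 CG and 5.05 CHG cytosines per 100 bp, and CHG regions alone 3.92 and 10.9. Among CHG cytosines of the CG and CHG loci 25.9% were in CCG, in which the next cytosine is a CG site, close to the 26.2% over all nuclear loci. The share was 22.8% at loci of all 3 contexts, 32.7% at CG and CHH loci, 32.4% in CG regions alone, 14.3% in CHG regions alone and 19.2% in the genome. The 16 loci of the chromosome 2 copy were denser, with 9.35 CG and 9.72 CHG cytosines, and without them the medians were 5.46 and 5.16.

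**Figure D5:**
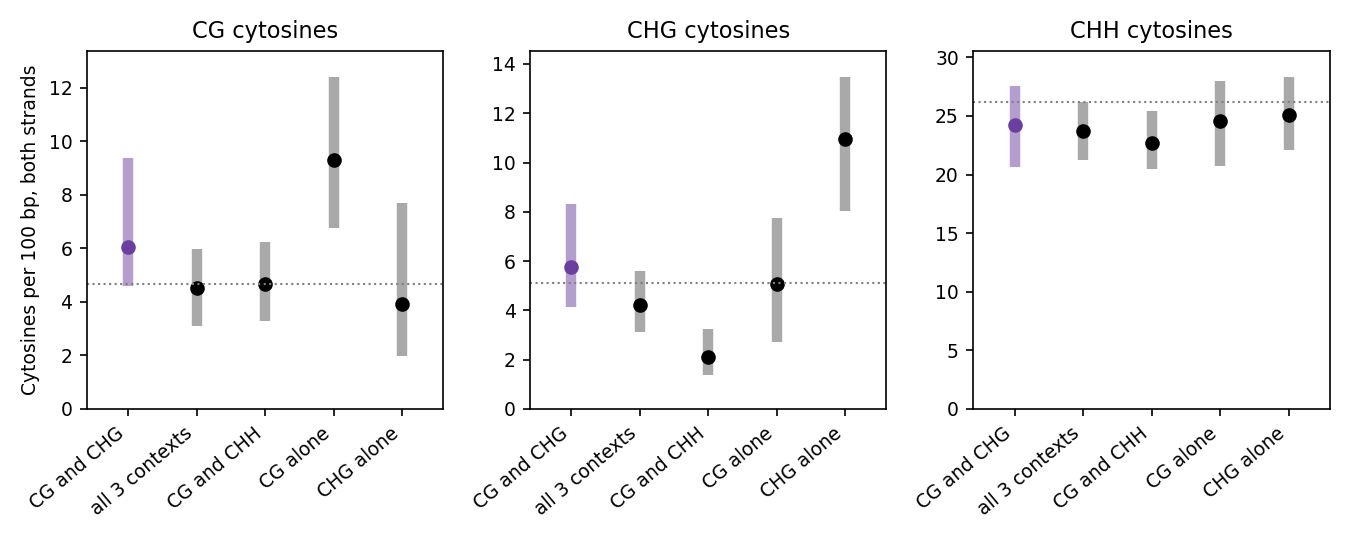
Cytosines per 100 bp over both strands in CG, CHG and CHH, as the median (point) and quartiles (bar) of each kind of locus. The dotted line is the density pooled over the nuclear genome, not a median. The CG and CHG loci (purple) stood at 6.04, 5.77 and 24.2, above the genome in CG and CHG and below its 26.2 in CHH.

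Genes that write or erase these marks were looked up in the same way. Of 20 genes for DNA methylation, demethylation and the RNA-directed pathway, among them MET1, CMT3, CMT2, DRM2 and SUVH4, 0 had a CG and CHG locus in the gene or within 2000 bp, and 6 had a listed region of any kind. Among all 27444 nuclear protein-coding genes, 0.674% had such a locus and 21.3% a listed region of any kind within the same distance, so 0 of 20 says nothing particular about these genes. NDX (AT4G03090), the mutated gene, had 0 such loci and 1 listed CG region, and FLC (AT5G10140), a repressor of flowering, had 0 of either.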

How the data were processed

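Genomic DNA of 14-day-old Col-0 and ndx1-4 seedlings was fragmented to 200 to 400 bp, bisulfite converted and sequenced, with 2 libraries per genotype. The submitters' processing notes name Bismark and TAIR10. The region caller and its thresholds were not given in the sources used here. Levels are fractions deposited by the authors, with 1 value per genotype for a region. The authors' own difference and area statistic are a score each. The difference was recomputed from the levels, and the area statistic served only to rank loci and as an alternative threshold. Region lengths and numbers of cytosines are the authors' as well.

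Coordinates were taken as 1-based and checked against TAIR10.1 from RefSeq. Both ends fell on a cytosine of the region's context in 100% of 2867 CG, 743 CHG and 3177 CHH nuclear regions. Chaining was tested on simulated regions. Exons, pseudogenes, noncoding genes and 1 kb upstream of protein-coding genes came from RefSeq, and overlap with a gene was counted on either strand. Pericentromeric DNA was the stretch around the 100 kb bin with least exon coverage, smoothed over 1 Mb, where coverage stayed under 50% of the chromosome median (21.1 Mb in all). Mitochondrial DNA was aligned with minimap2 2.31-r1302, keeping blocks of at least 1000 bp. Intervals are Wilson at 95%, and Python 3.11.15 with pandas 2.3.3 was used.

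Named loci are the 12 per direction with the largest smaller sum of area statistic over CG and CHG, those with regions of opposite direction (0 found), those at protein-coding genes with a symbol or at methylation genes, and those at the limits of the rule. The loci and lists were chosen with earlier results of these data known. Mitochondrial regions entered no comparison.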

Additional observations from a re-analysis of the deposited data

How the results depend on the processing

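No paired analysis was possible because each region has a single deposited level per genotype, and for the same reason no replicate could be left out. No alternative could reverse a direction, because regions were grouped by direction before their medians were taken. All loci had a single direction in each alternative, which was fixed in advance where an alternative only left out loci. With larger differences only (CG regions of 0.2 or more, CHG regions of 0.15 or more, CHH regions of 0.1 or more), there were 184 loci, against 131. Of these 184, 47.3% rose and 31.5% were pericentromeric. Dropping smaller CHH regions lets other loci enter the class, so the lack of a CHH region depends on the threshold. The median differences were then -0.564 in falling CG, 0.250 in rising CHG and -0.271 in falling CHG regions, larger as the threshold itself makes them. In the upper 50% by area statistic there were 63 loci, with medians of -0.516 in falling CG and -0.239 in falling CHG regions. Without chromosome 2 there were 87 loci, 47.1% rising and 31.0% pericentromeric. A mean weighted by length gave -0.245 in falling CHG regions, against a median of -0.214.

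In all, 82 of 94 main values and 93 of 99 others moved by less than the interval of the reported value, or by under 1.5 times for a number of loci. Leaving out the chromosome 2 copy, an alternative chosen after seeing the data, gave 49 rising and 66 falling loci. Depth per library and the spread between plants limit every level here, and neither could be read from these files.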
